A study of Homo sapiens with 6 samples.

Results

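The HOX genes were read as every amplicon whose symbol is HOXA, HOXB, HOXC or HOXD followed by digits only, which gave 38 of 20802 genes, with 11 in HOXA, 10 in HOXB, 8 in HOXC and 9 in HOXD. HOXC4 has no amplicon among them. Transcriptomes were measured by amplicon sequencing in MCF10A, an established benign human mammary epithelial cell line, to ask what overexpression of GIRK1, the potassium channel subunit encoded by KCNJ3, changes. The 6 libraries are 2 replicates each of the untransfected line (wt), of MCF10A eGFP, the control stably transfected with the green fluorescent protein, and of MCF10A GIRK1, stably transfected with the GIRK1 coding sequence on a plasmid that also carries eGFP. Per the methods, transfected cells were selected with G418 and sorted for eGFP fluorescence, and no isolation of single clones is described. All lines grew in the same epithelial medium with growth supplements and cholera toxin.

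HOX genes encode homeodomain transcription factors that lie in 4 clusters, and their order along a cluster follows the order in which they are used along the body axis. Genes at corresponding places in the clusters form 13 paralogue groups, here divided into anterior (groups 1 to 3), central (4 to 8) and posterior (9 to 13). Adult epithelia keep a stable combination of expressed and silent members, the HOX code, maintained by Polycomb repressors and Trithorax activators, and HOX proteins bind DNA together with PBX and MEIS cofactors.

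In the GENCODE annotation of GRCh38, HOXA lay at chr7:27092993-27200106 (minus strand, 107.1 kb), HOXB at chr17:48528526-48729178 (minus strand, 200.7 kb), HOXC at chr12:53938765-54056030 with HOXC4 included (plus strand, 117.3 kb) and HOXD at chr2:176092891-176190907 (plus strand, 98 kb). RefSeq promoter windows (GRCh38.p14), from 250 bases before to 50 after a start, matched 19 of the 38 members. Those of HOXA4, HOXA6 and HOXA7 are shown because these members of the same stretch of HOXA had unlike levels: HOXA4 was expressed in all 6 libraries, HOXA6 gave the highest fold between GIRK1 and eGFP, and HOXA7, the next gene in the 5′ direction, had 0 reads in 5 libraries. Each window is printed on the strand of its gene, and capitals mark GGGCGG and CCAAT on either strand (CCAAT on the other strand reads ATTGG), where copies of GGGCGG may overlap.
HOXA4, chr7:27130708-27131007, minus strand: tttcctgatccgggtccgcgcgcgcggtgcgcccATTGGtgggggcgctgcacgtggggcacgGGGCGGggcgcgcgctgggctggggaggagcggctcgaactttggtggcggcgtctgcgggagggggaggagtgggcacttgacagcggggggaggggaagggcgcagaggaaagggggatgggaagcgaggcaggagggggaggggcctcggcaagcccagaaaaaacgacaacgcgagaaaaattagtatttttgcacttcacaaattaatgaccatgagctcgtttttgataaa
HOXA6, chr7:27147725-27148024, minus strand: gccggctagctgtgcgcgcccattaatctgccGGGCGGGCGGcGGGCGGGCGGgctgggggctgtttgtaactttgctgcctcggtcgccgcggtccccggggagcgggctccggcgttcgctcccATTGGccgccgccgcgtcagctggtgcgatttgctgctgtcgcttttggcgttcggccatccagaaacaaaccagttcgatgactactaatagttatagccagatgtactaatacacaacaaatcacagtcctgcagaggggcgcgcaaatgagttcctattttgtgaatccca
HOXA7, chr7:27156626-27156925, minus strand: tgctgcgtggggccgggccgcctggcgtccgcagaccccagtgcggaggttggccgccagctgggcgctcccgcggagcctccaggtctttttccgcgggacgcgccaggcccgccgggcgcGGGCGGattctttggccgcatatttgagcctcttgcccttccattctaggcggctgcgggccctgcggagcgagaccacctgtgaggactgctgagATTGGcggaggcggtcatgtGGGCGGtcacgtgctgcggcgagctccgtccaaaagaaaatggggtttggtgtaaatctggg

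The HOXA6 window held 4 copies of GGGCGG, that of HOXA7 held 2 and that of HOXA4 held 1, and each held 1 CCAAT on the other strand. Of 35116 RefSeq windows of this length, 45.0% held GGGCGG and 34.6% held CCAAT on either strand. The windows were rich in CpG, with 27 (HOXA4), 29 (HOXA6) and 31 (HOXA7) CpG against a median of 14 over all windows. TATAAA, TGATNNAT and AGGTCA, which 11.5%, 7.40% and 13.8% of all windows held, were in none of the 3 windows on either strand. The window of HOXA7 thus held the same 2 motifs as those of HOXA4 and HOXA6.

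The labels were checked first. KCNJ3 had 2408 reads (217 RPM) and 3677 reads (355 RPM) in MCF10A GIRK1, 0 reads in both eGFP libraries and in wt replicate 2, and 48 reads (19.2 RPM) in the library labelled wt replicate 1. Total reads ran from 2506120 (wt replicate 1) to 16040556 (wt replicate 2), so that 3 reads, taken as the floor, correspond to 1.20 RPM in the former and 0.187 to 0.585 RPM in the other 5 libraries. Markers of basal mammary cells summed to 9165 to 17228 RPM in those 5 libraries and to 399 RPM in wt replicate 1, where KRT14, KRT6A and KRT17 had 0 reads. Markers of luminal cells summed to 19246 RPM in wt replicate 1 and 531 to 1029 RPM in the 5 others, which had 0 reads of ESR1, PGR, TFF1 and KRT19. The basal marker TP63 had 0 reads in all 6 libraries. Because the library labelled wt replicate 1 goes against its label in these markers, it was kept out of the comparison of GIRK1 with eGFP and is described on its own. No source says that replicates came from separate cultures, so p-values measure a spread between libraries that may be technical. In the names of the deposited data, the GIRK1 libraries carry a tag that the other 4 do not. What it stands for is unknown, and if it marks sequencing runs, these cannot be told apart from the condition.

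HOX transcripts were a small share of the transcriptome, with 203 to 1725 reads per library, or 81.0 to 113.7 RPM in sum. At a limit of 2 RPM, 9 or 10 of the 38 members were expressed in every library. The same 8 members reached that limit in all 5 libraries other than wt replicate 1, among them HOXA3, HOXA4, HOXA5, HOXA10, HOXC6, HOXC8 and HOXC9. HOXA6, HOXA9, HOXB9 and HOXC13 reached it in some of these 5. In bulk RNA, fewer expressing cells and less RNA per cell cannot be told apart. Each gene is read by 1 amplicon, so RPM does not scale with transcript length, but amplicons differ in yield, and the order of levels between genes is a description.

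**Figure D1:**
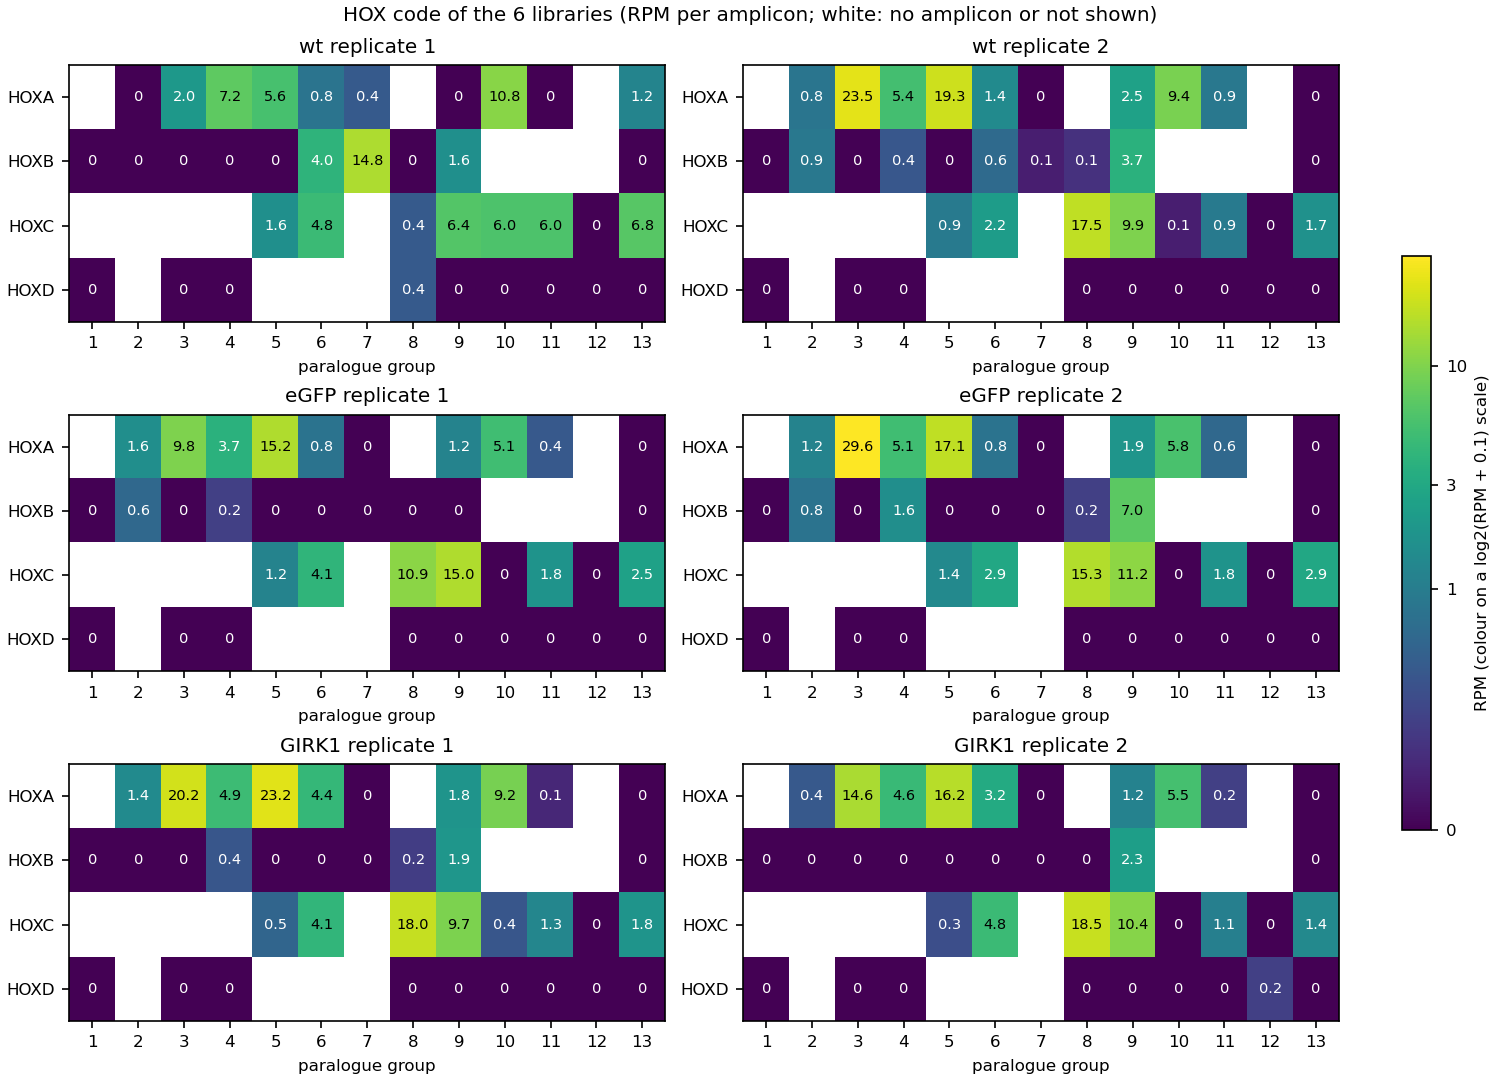
Level of each HOX member in RPM, one panel per library, with the 4 clusters as rows and the paralogue groups 1 to 13 as columns; white squares have no amplicon or are not shown, and colour follows log2(RPM + 0.1). HOXA4, HOXA5, HOXA10 and HOXC9 are bright in all 6 panels, and HOXA3 and HOXC8 in all but wt replicate 1. HOXB7 (14.8 RPM) and HOXC10 (5.98 RPM) stand out in wt replicate 1, and the HOXD row is at or near 0 in all 6.

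The strongest anterior member was HOXA3, a regulator of pharyngeal and vascular development, at 23.5 RPM in wt replicate 2, 9.75 and 29.6 RPM in eGFP and 20.2 and 14.6 RPM in GIRK1. The group-2 genes were low throughout, with HOXA2 at 4 to 16 reads and HOXB2 at 0 to 14 reads in these 5 libraries. HOXA3 thus stood well above both group-2 genes in each of them.

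Among central members, HOXA5, a regulator of lung and mammary epithelial differentiation, reached 19.3 RPM in wt replicate 2, 15.2 and 17.1 RPM in eGFP and 23.2 and 16.2 RPM in GIRK1. HOXC8, a thoracic patterning gene, reached 17.5, 10.9 and 15.3, and 18.0 and 18.5 RPM. HOXA4 was steadier and lower, at 5.36, 3.71 and 5.08, and 4.86 and 4.64 RPM. HOXC6, a member expressed in mammary gland, was at 2.24, 4.10 and 2.93, and 4.14 and 4.83 RPM. The neighbour HOXA7 had 0 reads in all 5, although HOXA6 and HOXA9 on either side were read in each of them.

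Among posterior members, HOXC9, a thoracic patterning gene, stood at 9.91 RPM in wt replicate 2, 15.0 and 11.2 RPM in eGFP and 9.72 and 10.4 RPM in GIRK1. HOXA10, a uterine and limb regulator, stood at 9.35, 5.07 and 5.76, and 9.18 and 5.51 RPM. HOXB9, which acts with HOXA9 and HOXD9 in mammary gland development, was at 3.74, 0 and 7.04, and 1.89 and 2.32 RPM. HOXB9 thus differed more between the eGFP replicates, with 0 and 72 reads, than between the groups. HOXA9 was read in each of the 5 libraries at 1.16 to 2.49 RPM, HOXC11 at 0.935 to 1.76 RPM and HOXC13, the hair and nail regulator, at 1.35 to 2.93 RPM.

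A total of 17 members had at most 3 reads in every one of the 6 libraries, and 12 of them had 0 reads throughout. All 9 HOXD members are among the 17, with a single read of HOXD8 in wt replicate 1 and 2 reads of HOXD12 in GIRK1 replicate 2 as the only HOXD reads. The others are HOXB1, HOXB3, HOXB5, HOXB8, HOXB13, HOXA7, HOXA13 and HOXC12. In the deepest library, 3 reads correspond to 0.187 RPM, so these genes were not detectable above that level there. Their amplicons had a median GC content of 64.4% against 62.1% for the other 21 members and 52.3% over all 20802 amplicons, and a median length of 103 bases in all 3 sets. The HOXD amplicons ranged from 43.8% (HOXD8) to 77.6% (HOXD11) GC, and all were at or near 0. Whether these amplicons yield reads where the genes are expressed was not tested. The remaining 5 members that stayed under 2 RPM in all libraries but had over 3 reads in at least 1 are HOXA2, HOXA11, HOXB2, HOXB4 and HOXC5.

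Summed by cluster, HOXC was the steadiest, at 33.2 RPM in wt replicate 2, 35.5 and 35.6 RPM in eGFP, 35.8 and 36.4 RPM in GIRK1 and 31.9 RPM in wt replicate 1. Each of the 5 other values lay within the exact (Clopper-Pearson) 95% counting interval of wt replicate 1, 25.3 to 39.7 RPM. This closeness depends on the scaling. With TMM scaling wt replicate 1 was farther below, at 27.9 against 33.7 to 38.1 in the 5 others. HOXA summed to 68.5 RPM in wt replicate 2, 45.1 and 68.6 RPM in eGFP and 68.8 and 50.7 RPM in GIRK1. HOXB summed to 5.80, 0.780 and 9.58, and 2.43 and 2.32 RPM in the same order. HOXA thus gave 55.4 to 64.3% of all HOX reads in these 5 libraries, HOXC 30.9 to 43.6% and HOXB 0.959 to 8.42%. Intervals cover counting error only, since PCR reads without molecular identifiers are not independent molecules.

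**Figure D2:**
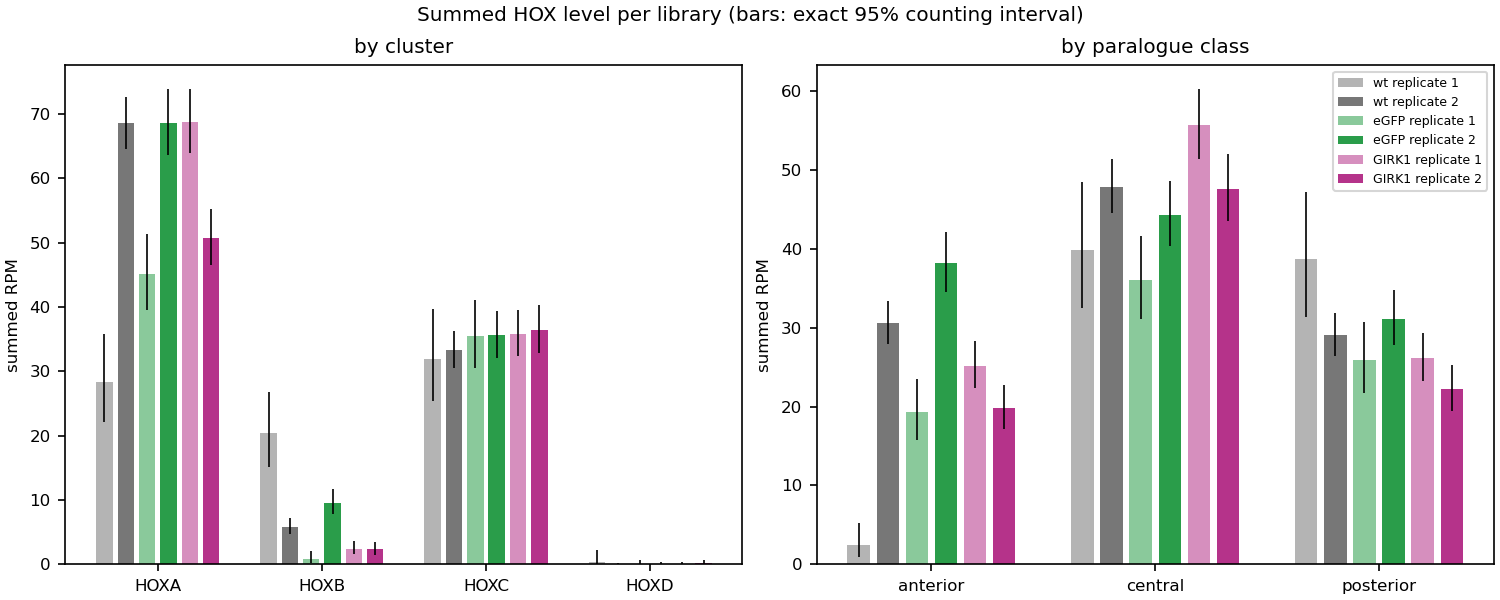
Summed RPM of the HOX members of each cluster (left) and of the anterior, central and posterior paralogue groups (right), one bar per library, with exact 95% counting intervals as error bars. HOXC lies at 31.9 to 36.4 RPM in all 6 libraries, while wt replicate 1 is lower in HOXA (28.3 RPM), higher in HOXB (20.4 RPM) and near 0 in the anterior groups (2.39 RPM).

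GIRK1 overexpression was then compared with eGFP. Mean summed HOX levels were 97.5 ± 22.9 RPM in eGFP and 98.4 ± 12.3 RPM in GIRK1 (SD, n = 2). HOXA summed to 56.8 ± 16.6 RPM in eGFP and 59.8 ± 12.8 RPM in GIRK1, and HOXC to 35.5 ± 0.0481 and 36.1 ± 0.429 RPM. The HOXA, HOXB and anterior sums overlapped between the groups, while the central sum was 36.1 and 44.4 RPM in eGFP against 55.7 and 47.6 RPM in GIRK1, and the posterior share of HOX reads was lower in both GIRK1 libraries, with means of 29.7 ± 3.17% and 24.6 ± 0.279%. The posterior sums themselves overlapped, at 25.9 and 31.2 RPM in eGFP and 26.1 and 22.2 RPM in GIRK1. The central sum of wt replicate 2 was 47.9 RPM, above that of GIRK1 replicate 2. The exact 95% counting intervals of the central sum overlapped between eGFP replicate 2 (40.4 to 48.6 RPM) and GIRK1 replicate 2 (43.5 to 52.0 RPM). With 2 libraries against 2, an exact permutation test cannot go below a two-sided p of 0.333, so these sums were not tested.

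Across all genes, edgeR's quasi-likelihood test was run on the 4 eGFP and GIRK1 libraries. It covered 11279 genes that passed the filter on low counts, 15 of them HOX members. At a Benjamini-Hochberg adjusted p below 0.05, 172 genes (1.52%) were called, 88 higher (0.78%) and 84 lower (0.745%) in GIRK1, and 0 of the 15 HOX members. Unadjusted, 2 of the 15 (HOXA6 and HOXC5) had a p below 0.05, against 19.2% of all genes tested. DESeq2 called 694 genes (6.15%) and 0 HOX members. The median log2 fold change was -0.22 over the 15, with 6 above and 9 below 0, and 0.01 over all genes tested. Standard errors ran from 0.26 (HOXC8) to 1.11 (HOXB9) on the log2 scale, and a difference that misses the threshold at that precision is not shown to be absent. The 23 other members were too low to be tested.

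**Figure D3:**
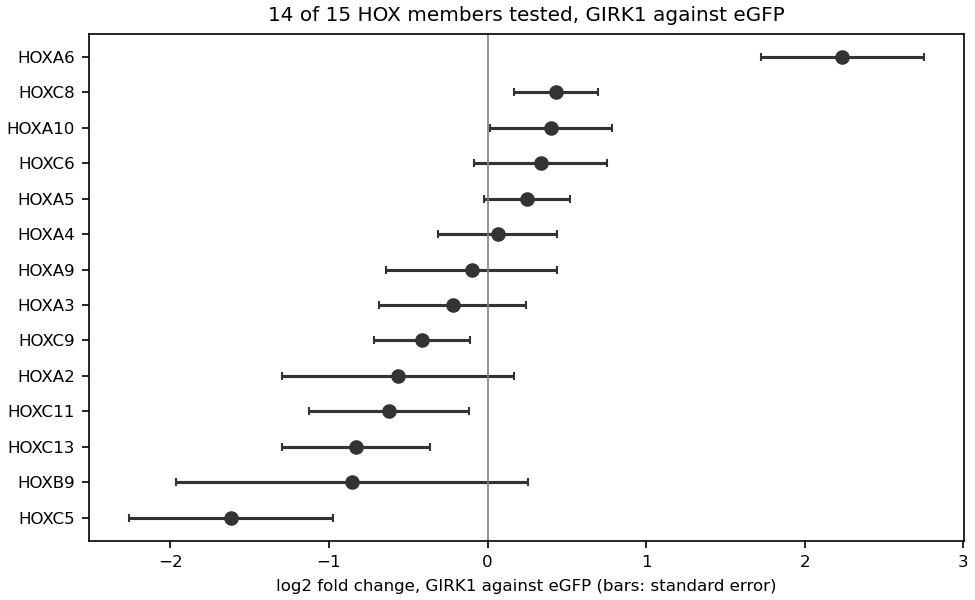
Log2 fold change of GIRK1 against eGFP for 14 of the 15 HOX members tested, in order of size. Bars are standard errors derived from the F value of edgeR's test, and the vertical line marks no difference. HOXA6 (2.24) and HOXC5 (-1.62) are farthest from 0, and neither passed the adjusted threshold.

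HOXA6, a central HOXA member of thoracic patterning, showed the highest fold. It had 4 and 8 reads in eGFP (0.780 and 0.782 RPM) and 49 and 33 reads in GIRK1 (4.41 and 3.19 RPM), with 23 reads (1.43 RPM) in wt replicate 2 and 2 reads in wt replicate 1. Both GIRK1 libraries lay above all 4 others. Mean levels were 0.781 ± 0.00141 and 3.80 ± 0.865 RPM (SD, n = 2), a ratio of 4.87. The log2 fold change was 2.24 ± 0.51 (SE) with an adjusted p of 0.0952 (edgeR quasi-likelihood, Benjamini-Hochberg). Without the filter on low counts the adjusted p was 0.0324 (same test), and over the other alternatives that kept the gene it ran from 0.0544 to 0.905. HOXA6 overlaps HOXA3 and the antisense HOXA-AS3 in the annotation, whose amplicon had 0 reads in all 6 libraries. The log2 fold change of HOXA3 was -0.22 ± 0.47 (SE), and 0.73 without eGFP replicate 2.

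HOXC5, a central HOXC member, was lower, a member singled out after its values were seen. It had 6 and 14 reads in eGFP (1.17 and 1.37 RPM), 6 and 3 reads in GIRK1 (0.540 and 0.290 RPM), 15 reads in wt replicate 2 and 4 in wt replicate 1. The groups did not overlap, on counts of 3 to 14 reads. The log2 fold change was -1.62 ± 0.64 (SE), with an adjusted p of 0.242 (edgeR quasi-likelihood, Benjamini-Hochberg). HOXC5 shares sequence range with HOXC4 in the annotation, and transcripts of the pair cannot be told apart where they overlap.

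Non-overlap alone was common. Both GIRK1 libraries lay above both eGFP libraries for HOXA6, HOXC6 and HOXC8, 3 of 15 members against 29.1% of all genes tested. Both lay below for 5 of 15 members against 25.2%, among them HOXC5, HOXC9, HOXC11 and HOXC13. Apart from HOXA6 and HOXC5, these members were within 2-fold in mean RPM, for instance HOXC8 at 13.1 ± 3.12 RPM in eGFP and 18.2 ± 0.321 RPM in GIRK1, and HOXC9 at 13.1 ± 2.67 and 10.1 ± 0.506 RPM (SD, n = 2).

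By the rule in the study's methods, read here as a 2-fold difference of mean RPM with a coefficient of variation under 0.7 in each group, HOXA6 was higher and HOXA11 and HOXC5 were lower. These were 3 of 18 HOX members with reads in both groups, beside 4.75% of all such genes higher and 5.17% lower. On the fold alone HOXB4, with 1 and 16 reads in eGFP and 4 and 0 reads in GIRK1, was also lower, beside 9.22% of all such genes higher and 9.73% lower. HOXA11, a posterior member of limb and uterine development, rested on 2 and 6 reads in eGFP and 1 and 2 reads in GIRK1. HOXB2 had 3 and 8 reads in eGFP and 0 in both GIRK1 libraries. It was left out here, since only genes with reads in both groups were counted.

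The replicates set the scale for these differences. Of genes that averaged 10 reads or more over the 4 libraries, 14.6% differed 2-fold or more between the eGFP replicates, as did HOXA3 and HOXB9 of 14 HOX members. Between the GIRK1 replicates it was 3.88%, and HOXA2 of 14. HOXB9 was called when either eGFP replicate was left out, in opposite directions, with a log2 fold change of -1.73 (adjusted p = 0.0451) without eGFP replicate 1 and of 7.21 (adjusted p = 0.0235) without eGFP replicate 2 (edgeR quasi-likelihood, Benjamini-Hochberg). In these fits the spread comes from the GIRK1 pair, and the lone eGFP library is assumed to vary like it. The latter value is set against 0 reads, so it depends on the prior count of the fit and measures no size. All 4 libraries gave -0.85 ± 1.11 (SE).

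**Figure D4:**
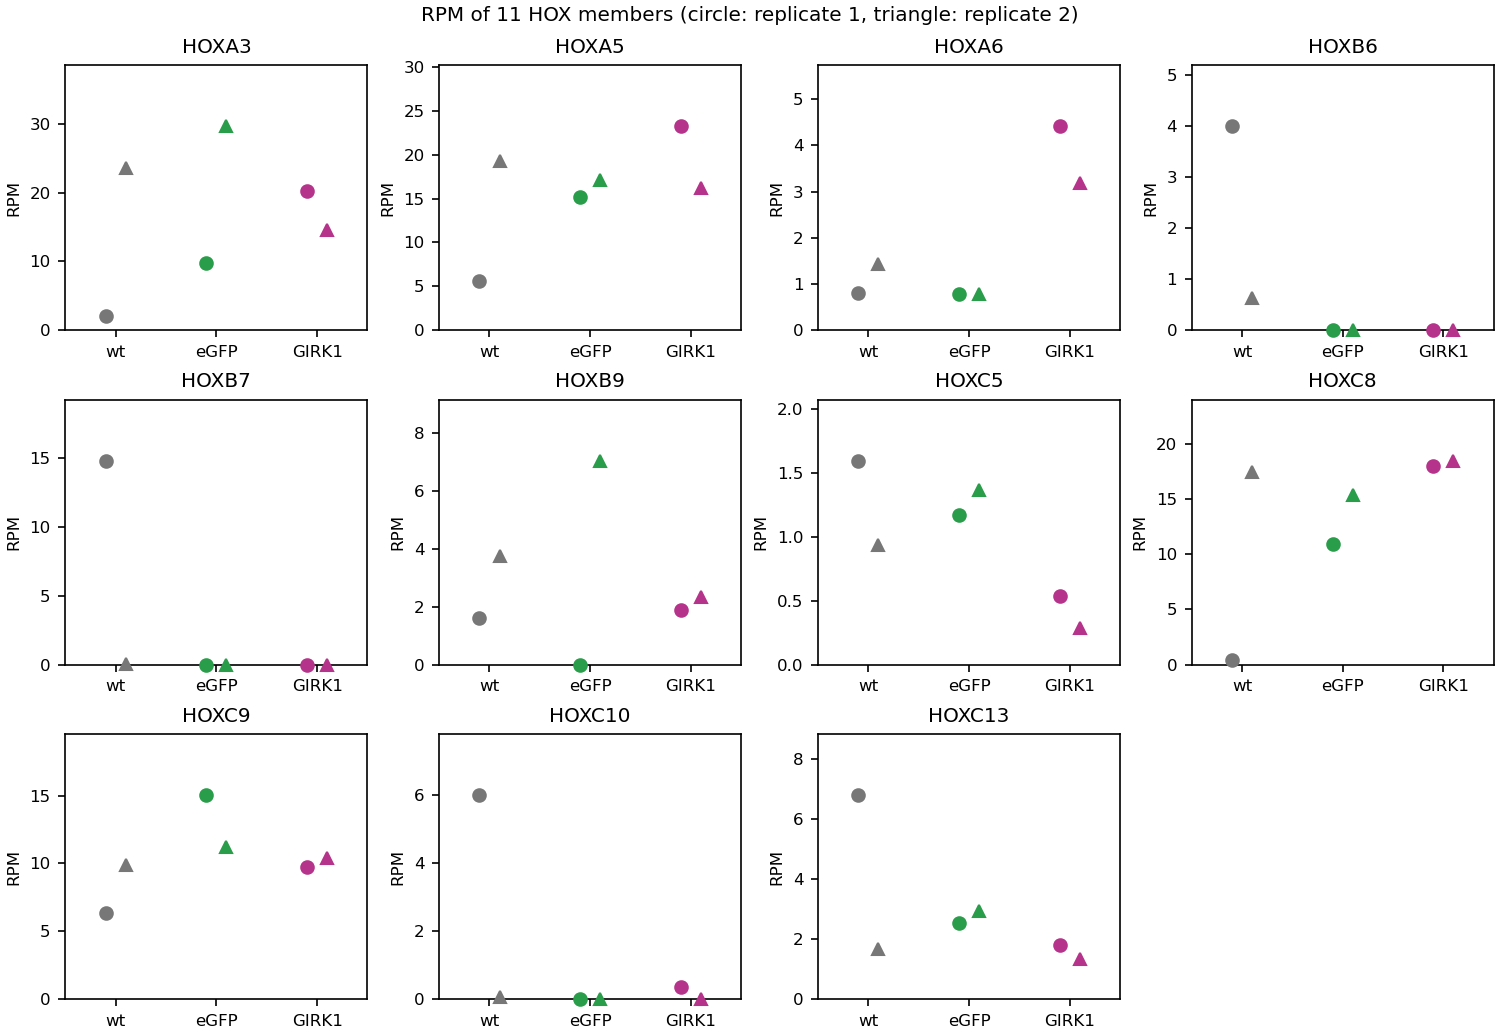
RPM of 11 HOX members in the 6 libraries, by group, with replicate 1 as circles and replicate 2 as triangles and each vertical axis starting at 0. HOXA6 is higher in both GIRK1 libraries (4.41 and 3.19 RPM), HOXB9 is split between the eGFP replicates (0 and 7.04 RPM), and HOXB7, HOXC10 and HOXC8 set wt replicate 1 apart.

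Among cell type markers, those called between eGFP and GIRK1 were basal. Of the 9 basal markers tested, 1 was higher (KRT17) and 2 were lower (LAMB3 among them) in GIRK1 at a Benjamini-Hochberg adjusted p below 0.05 in edgeR, and the list of 10 summed to 11541 to 17228 RPM in eGFP and 10392 to 11082 RPM in GIRK1. The 8 mesenchymal markers, mostly VIM, summed to 1402 to 1883 and 799.7 to 1024 RPM, with COL1A2 at 0 in all 6 libraries. Of the other lists, 7 mesenchymal, 6 luminal and 1 haematopoietic markers were tested and 0 were called, against 1 luminal marker without eGFP replicate 1. Luminal markers summed to 531 to 888 and 829 to 869 RPM, 4 of 5 haematopoietic markers and 3 of 3 neural markers had 0 reads throughout, and CD14 was at 20.9 to 21.7 RPM in eGFP and 11.3 to 15.7 RPM in GIRK1. In wt replicate 2, CD14 was at 7.11 RPM and the basal list summed to 9165 RPM, both below the 2 GIRK1 libraries. VIM was at 1359 RPM in wt replicate 2, above both GIRK1 libraries. The part of these levels in the HOX values was not tested.

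The library labelled wt replicate 1 held another HOX code. It reached 2 RPM for 10 members, 5 of which (HOXA4, HOXA5, HOXA10, HOXC6 and HOXC9) reached it in all 5 other libraries, and 4 of which (HOXB6, HOXB7, HOXC10 and HOXC11) reached it in none of them. HOXA3 and HOXC8, expressed in all 5 others, stayed below the limit. It is a single library of 203 HOX reads, so no test was possible and ratios are given with exact counting intervals against wt replicate 2.

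HOXB7, a central member studied as an oncogene in breast cancer, was its leading HOX gene. It had 37 reads (14.8 RPM, exact 95% interval 10.4 to 20.4) in wt replicate 1, 1 read in wt replicate 2 and 0 reads in the 4 transfected libraries. The ratio of the wt libraries was 238 (39.9 to 9604). Its neighbour HOXB6 had 10 reads (3.99 RPM) in wt replicate 1, 10 reads (0.623 RPM) in the deeper wt replicate 2 and 0 in the other 4, a ratio of 6.40 (2.39 to 17.1). Together with 4 reads of HOXB9 these made up HOXB in this library, and HOXB8, which lies between HOXB7 and HOXB9, had 0 reads (exact 95% interval 0 to 1.47 RPM).

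The posterior HOXC genes followed. HOXC10, a lumbar and hindlimb patterning gene, had 15 reads (5.98 RPM) in wt replicate 1, 1 read in wt replicate 2, 0 in both eGFP libraries and 4 and 0 reads in GIRK1, and the ratio of the wt libraries was 96.5 (14.8 to 4042). HOXC11 also had 15 reads there, against 15 reads in the deeper wt replicate 2, a ratio of 6.40 in RPM. HOXC13 stood at 6.78 RPM against 1.68 RPM, a ratio of 4.03 (2.06 to 7.67). All 3 were above every one of the other 5 libraries in RPM.

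The opposite was seen for HOXC8, which had 1 read (0.399 RPM, 0.0101 to 2.22) in wt replicate 1 and 56 to 280 reads (10.9 to 18.5 RPM) in the 5 others. The ratio of wt replicate 2 to this single read was 43.7 (interval 7.79 to 1734). HOXA3 had 5 reads (1.995 RPM, just under the limit of 2 RPM) against 377 in wt replicate 2, which was 11.8 times higher (5.0 to 36.5). HOXA5 had 14 reads against 309, a ratio of 3.45 (2.02 to 6.38). HOXA9 had 0 reads in wt replicate 1 (exact 95% interval 0 to 1.47 RPM). In wt replicate 2 HOXA9 was at 2.49 RPM, which is 2.08 times the floor of 3 reads in wt replicate 1. HOXA4 and HOXA10, in contrast, were at 7.18 and 10.8 RPM, with ratios to wt replicate 2 of 1.34 (0.758 to 2.25) and 1.15 (0.735 to 1.74), intervals that include 1. HOXC9 was at 6.38 RPM, with a ratio of 0.644 (0.359 to 1.08), and HOXC6 at 4.79 RPM, with a ratio of 2.13 (1.01 to 4.20).

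Counted over all genes, 10.3% of those at 2 RPM or more in wt replicate 1 were at least 4-fold above the highest of the 5 other libraries, as were HOXB6, HOXB7 and HOXC10 of 10 HOX members. At least 4-fold below the lowest were 7.56% of the genes that could be so counted, as were HOXA3 and HOXC8 of 5 HOX members, a direction added after the values were seen. Genes outside HOX thus also lay apart in this library, the shallowest in total reads, and no such count was made for the other libraries. The HOX genes were not set against these shares by a test.

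By cluster, wt replicate 1 had 28.3 RPM of HOXA (22.1 to 35.7), below the 45.1 to 68.8 RPM of the others, and 20.4 RPM of HOXB (15.2 to 26.8), above their 0.780 to 9.58 RPM. HOXB was 25.1% of its HOX reads (exact 95% interval 19.3 to 31.7%). Without HOXB7, its most abundant member, the HOXB share of wt replicate 1 was 8.43%. The others had 0.959 to 8.42% with all members counted. Most of the HOXB share in wt replicate 1 thus came from HOXB7. By position along the clusters, the anterior genes gave 2.39 RPM (0.879 to 5.21) against 19.3 to 38.2 RPM, or 2.96% of its HOX reads against 22.1 to 33.6%. The posterior genes summed to 38.7 RPM (31.4 to 47.2) against 22.2 to 31.2 RPM, or 33.8 against 22.9 to 31.6 with TMM scaling. They gave 47.8% of its HOX reads against 24.4 to 31.9%, and the central genes 49.3% against 39.0 to 53.1%. As a share of HOX reads, this library was thus richer in posterior genes and in HOXB7 than the others.

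The genes that work with the HOX proteins or act on the clusters were taken from lists chosen with earlier results known. Of 9 TALE cofactors, 6 were tested and 0 were called between GIRK1 and eGFP (median log2 fold change -0.019, or 0.10 without eGFP replicate 1). PBX2 was the leading cofactor, at 44.1 RPM in wt replicate 2, 54.2 and 62.0 RPM in eGFP and 67.5 and 73.8 RPM in GIRK1. PBX3 was at 8.51 to 15.2 RPM, MEIS2 at 10.1 to 11.3 RPM and PKNOX1 at 6.06 to 11.1 RPM in these 5 libraries. In wt replicate 1 MEIS1 was at 22.3 RPM against 2.42 to 3.96 RPM in the 5 others. PBX4, named after its values were seen, was at 3.99 RPM against 0.097 to 0.195 RPM. The 2 libraries of the wt label thus differed in cofactors as well as in HOX members, whereas MEIS2 was at 9.58 and 10.2 RPM and PBX2 at 48.7 and 44.1 RPM in them.

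**Figure D5:**
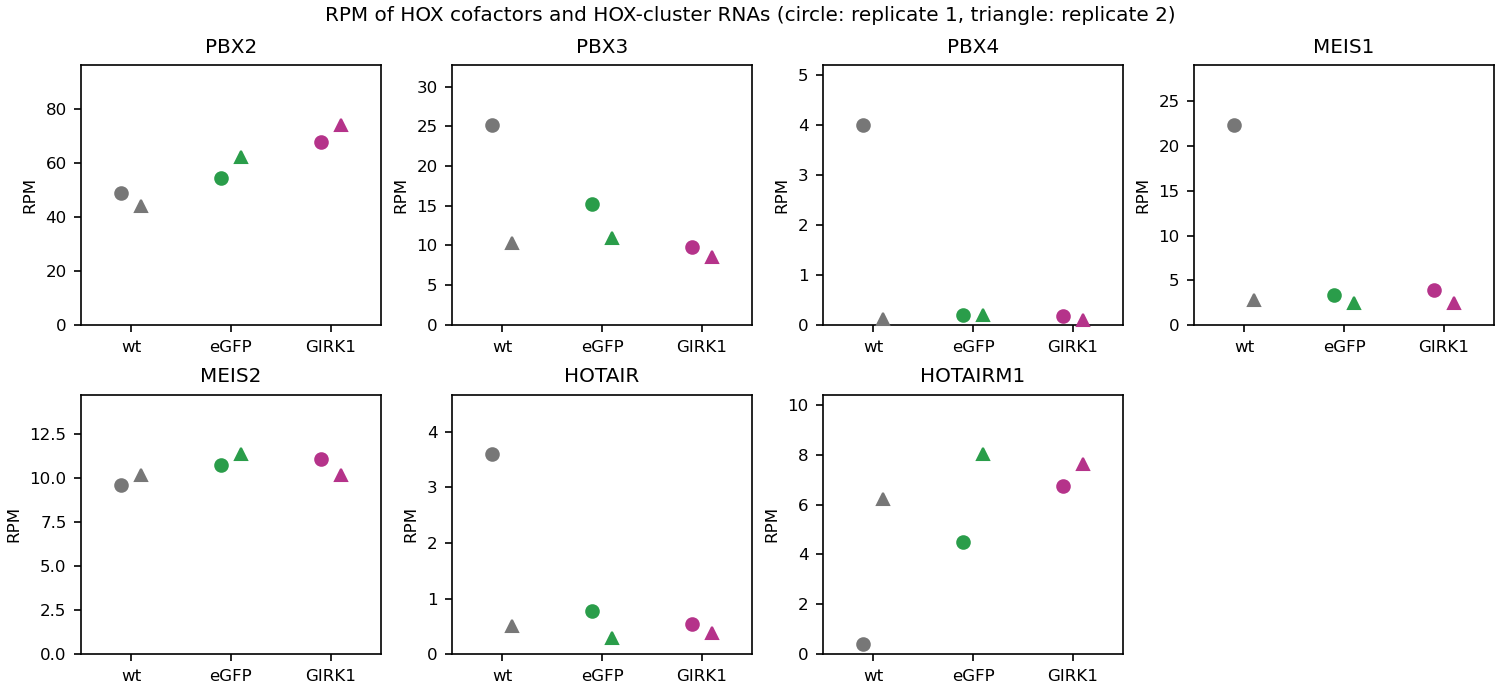
RPM of 5 PBX and MEIS cofactors and of the HOX-cluster RNAs HOTAIR and HOTAIRM1 in the 6 libraries, by group, with replicate 1 as circles and replicate 2 as triangles and each vertical axis starting at 0. PBX4, MEIS1 (22.3 RPM) and HOTAIR (3.59 RPM) are highest in wt replicate 1, where HOTAIRM1 (0.399 RPM) is lowest.

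Of the noncoding RNAs of the clusters, 7 had an amplicon and 5 of these (HOTTIP, HOXA-AS3, HOXB-AS3, HOXD-AS1 and HOXD-AS2) had 0 reads in all 6 libraries. HOTAIRM1, an RNA of the 3′ end of HOXA, was at 6.23 RPM in wt replicate 2, 4.49 and 8.01 RPM in eGFP, 6.75 and 7.64 RPM in GIRK1 and 0.399 RPM in wt replicate 1. Since the library kit is not stated to keep strand, reads of overlapping partners cannot be told apart. HOTAIR lies in HOXC between HOXC12 and HOXC11 and overlaps HOXC11 on the opposite strand in the annotation. It was at 3.59 RPM in wt replicate 1 and 0.293 to 0.780 RPM in the 5 others. HOXC10 and HOXC11 were also higher in wt replicate 1, but reads of HOTAIR and HOXC11 cannot be told apart where these overlap. The log2 fold change of HOTAIRM1 between GIRK1 and eGFP was 0.15 ± 0.37 (SE), and -0.14 without eGFP replicate 1.

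Of 15 Polycomb genes, all were tested and 0 were called, with a median log2 fold change of 0.49 against 0.01 over all genes tested. This rested on eGFP replicate 1, without which the median was 0.16, an alternative added after the data were seen. BMI1, a core repressor, was at 36.9 RPM in eGFP replicate 1, 84.6 RPM in eGFP replicate 2, 86.8 and 88.5 RPM in GIRK1 and 96.4 RPM in wt replicate 2. EZH2, the methyltransferase of the complex, was at 28.7 and 44.2 RPM in eGFP, 59.4 and 57.0 RPM in GIRK1 and 55.4 RPM in wt replicate 2. Of 9 Trithorax-type genes with an amplicon, all were tested and 0 were called (median 0.10).

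Of 16 genes of the retinoic acid axis, 8 were tested and 0 were called, with a median of -0.27, or -0.026 without eGFP replicate 1. ALDH1A3, a retinoic acid synthesising enzyme, was at 25.2 and 10.2 RPM in eGFP, 0.990 and 4.16 RPM in GIRK1, 3.24 RPM in wt replicate 2 and 0 in wt replicate 1. Its log2 fold change was -2.82, with an adjusted p of 0.120 (edgeR quasi-likelihood, Benjamini-Hochberg). RXRA, a nuclear receptor partner, was at 80.9 to 101 RPM in the 5 libraries and 193 RPM in wt replicate 1, and RARA, a retinoic acid receptor, at 5.22 to 9.56 and 57.5 RPM. CRABP1 and CRABP2, retinoic acid binding proteins named after their values were seen, were at 13.97 and 58.7 RPM in wt replicate 1 and at 0 and 2.12 to 13.5 RPM in the 5 others. CDX1, CDX2 and CDX4, regulators of posterior HOX genes, had 0 reads in all 6 libraries.

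Genes next to the clusters gave a check on the neighbourhood. Of 15 with an amplicon, 11 were tested and 0 were called, with a median log2 fold change of 0.03, or -0.046 without eGFP replicate 1. HNRNPA1 and CBX5 beside HOXC were at 196 to 300.2 RPM and 119 to 152 RPM in the 5 libraries. MTX2 beside HOXD was at 62.6 to 107 RPM there, although the 9 HOXD members were at or near 0 reads. EVX2, at the 5′ end of HOXD, had 0 reads in all 6 libraries, as did the HOXD antisense RNAs. In wt replicate 1, HNRNPA1 was at 86.2 RPM, CBX5 at 331 RPM and MTX2 at 49.1 RPM. SKAP1, next to HOXB, had reads only in that library, at 1.995 RPM.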

How the data were processed

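Ion AmpliSeq Transcriptome libraries of the 6 samples were sequenced by the authors and mapped with the Ion Torrent suite to its reference of human amplicons. The deposited read counts are unnormalised whole numbers per amplicon, the deposited RPM is each count scaled to the library total, and the deposited coverage columns give forward and reverse covering reads, used as counts in 1 alternative. How multi-mapping reads were handled, and tool versions, are not given in the sources used here. Of 20812 rows, 10 spike-in controls with 0 reads were left out, leaving 20802 genes. Groups came from the genotype and replicate numbers from the title in the labels.

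Counts of the 4 eGFP and GIRK1 libraries were tested with edgeR 4.0.16 (R 4.3.3; TMM, filterByExpr, glmQLFit, glmQLFTest, Benjamini-Hochberg, 0.05), with DESeq2 1.42.0 as an alternative, and the procedure was tested on simulated data. The expression limit was 2 RPM and the floor 3 reads. Intervals are exact (Clopper-Pearson), at 95%. Totals of 2506120 to 16040556 reads set this precision. Alternatives were other scalings, filters, sample sets, a replicate block, covering reads, other limits and leaving out each library. The HOX members and all lists were chosen with earlier results of these data known. Members given with all values are those with an adjusted p below 0.05, those with at least 10 reads on average and 2-fold apart without overlap, the 10 highest by mean RPM over eGFP and GIRK1, and those at 2 RPM or more in wt replicate 1 and 4-fold outside the other 5. HOXC5 and others marked in the text were chosen after their values were seen. Of each list, called genes and at most 6 others with the highest mean RPM are named. A few genes that these rules name are not reported here, in the text or the figures, though counts and sums include them.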

Additional observations from a re-analysis of the deposited data

How the results depend on the processing

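Of the 13 alternatives to the comparison of GIRK1 with eGFP, 10 also called 0 HOX members. HOXA6 was called without the filter on low counts (1 member, log2 fold change 2.24, adjusted p = 0.0324 by edgeR, Benjamini-Hochberg), where more low genes enter the fit, and leaving out 1 library gave 0 to 1 members, the 1 being HOXB9 without either eGFP replicate (-1.73 without eGFP replicate 1, 7.21, set against 0 reads, without eGFP replicate 2), where the lone eGFP library is assumed to vary like the GIRK1 pair. All-gene calls were 881 without the filter, 111 with at least 10 reads in every library, 694 by DESeq2, 0 with all 6 libraries (606 unadjusted), 590 with the replicate block and 89 to 2933 when 1 library was left out, against 172. The cause of these shifts was not tested. The replicate block called 0 HOX members. The same-numbered replicates share no stated source, and their deviations correlated at 0.193 over 9091 genes, so the block is given here only.

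Signs turned, with no call, when 1 library was left out for HOXA3 (range -0.76 to 0.73, higher without eGFP replicate 2), HOXA5 (-0.016 to 0.47, below 0 without GIRK1 replicate 1), HOXA10 (-8.58e-05 to 0.70, likewise) and HOXA4 (-0.085 to 0.25, below 0 without eGFP replicate 1). HOXA4 was also at -0.022 with wt replicate 2 added to the control and -0.043 on covering reads. HOXC8, HOXC9, HOXC6, HOXA6 and HOXC5 kept their direction under every alternative that kept the gene.

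At a limit of 10 RPM, the expressed members numbered 2 and 3 in wt, 3 and 4 in eGFP and 3 and 4 in GIRK1 (replicates 1 and 2). At 1 RPM they numbered 14 and 12 in wt, 13 and 15 in eGFP and 14 and 13 in GIRK1. At 10 reads, a limit that follows depth by construction, they numbered 10 and 18 in wt, 9 and 15 in eGFP and 14 and 13 in GIRK1.

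The summed HOXC level was 27.9 (wt replicate 1), 38.1 and 36.0 (eGFP) and 37.5 (GIRK1 replicate 2) with TMM scaling, and 33.2 and 34.2 (wt), 36.9 and 35.1 (eGFP) RPM on covering reads, and HOXB was 2.16 RPM on covering reads in GIRK1 replicate 2. Without the most abundant member of each library, the HOXA share was 45.1 and 46.3% in eGFP and 54.4 and 71.2% in GIRK1, the HOXB share 8.43% in wt replicate 1 and 2.90 and 3.26% in GIRK1, and the HOXC share 48.2 and 39.5% in wt, 53.7 and 42.3% in eGFP and 42.7 and 25.2% in GIRK1. The member left out was HOXC8 in GIRK1 replicate 2, HOXB7 in wt replicate 1 and HOXA3 or HOXA5 in the others. Such shares thus cannot be compared between libraries that lost members of different clusters. With all members counted, the HOXA shares overlapped, at 55.4 and 60.3% in eGFP and 64.3 and 56.6% in GIRK1. Without eGFP replicate 1, an alternative added after the data were seen, the list medians turned for the cofactors (0.10), HOTAIRM1 (-0.14) and the flanking genes (-0.046) and kept their sign for the Polycomb (0.16), Trithorax (0.08), retinoic acid (-0.026) and CDX (-0.11) lists.

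Depth limits the low members: HOXC5, HOXA11, HOXB2 and the 17 genes with at most 3 reads rest on few reads or none. In wt replicate 1, 3 reads correspond to 1.20 RPM.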
